A study of Mus musculus with 12 samples.

Results

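The genes described here encode the first steps of T cell receptor signalling, read on 12 Affymetrix mouse GeneChip arrays of CD4+ T cells from a study of Th17 cells, the helper lineage that makes IL-17. The members were all probe sets that the array's annotation assigns to Zap70, Lck, Lat, Lcp2, Fyn, Cd247, Cd3e, Plcg1 or Themis alone. They came to 20 of the 45101 probe sets and covered 8 of the 9 genes. The annotation used here lists no probe set for Lck, the Src family kinase that phosphorylates the receptor, so Lck was not analysed here. Cd3e and Lat had 1 probe set each, Fyn and Lcp2 had 2, Zap70 and Plcg1 had 3, and Cd247 and Themis had 4.

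All mice were female and each of the 4 groups had 3 arrays. SKG mice, on the BALB/c background, and BALB/c mice were sampled at 40 weeks. Their CD4+ T cells had been treated with PMA and ionomycin, per the labels, and came from lymph nodes as FR4- cells, lacking the folate receptor used in the sort. BALB replicate 1 is an exception, since it is labelled as CD4+ cells of spleen and lymph node with no FR4 sort. The IFNg group held spleen cells from BALB/c hosts lacking RAG2 that had received CD4+ cells of IFN-γ knockout BALB/c donors 7 days before, at 7 weeks of age. The IL-6 group was the same except that donors lacked IL-6 and hosts lacked both IL-6 and RAG2. The labels name no stimulation for the transferred cells. The transfers held no unmodified cells, and donor and host genotype differed together. The labels do not say whether each replicate is a mouse of its own. The p-values therefore reflect only how much the arrays vary, and that variation may be technical.

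The receptor has no kinase of its own. When it is engaged, Lck and Fyn phosphorylate the tyrosine motifs of the CD3 and zeta chains, the kinase ZAP-70 docks on them through its paired SH2 domains, and it then phosphorylates the adaptors LAT and SLP-76, on which phospholipase C gamma assembles. SKG mice carry a point mutation in the C-terminal SH2 domain of ZAP-70 that weakens this docking, and they develop autoimmune arthritis. PMA stands in for diacylglycerol and ionomycin lets calcium in, so this stimulus enters the pathway below ZAP-70. The labels do not give the mutation, and no value here checks it.

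The sequences just upstream of 4 members are shown because Zap70, Lat and Cd247 were lower in SKG than in BALB cells while Themis was higher. Each is the 250 bases before the most upstream start that RefSeq annotates, 5′ to 3′ in the direction of the gene. Capitals mark GGAA, the core of ETS family sites, or its reverse complement TTCC.
Zap70, GRCm38.p6 chr1:36761548-36761797, + strand: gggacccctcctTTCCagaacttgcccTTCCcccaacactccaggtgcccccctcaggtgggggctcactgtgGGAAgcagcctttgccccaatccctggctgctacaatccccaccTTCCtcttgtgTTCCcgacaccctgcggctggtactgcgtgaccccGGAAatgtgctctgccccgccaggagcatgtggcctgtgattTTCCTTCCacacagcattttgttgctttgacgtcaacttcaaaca
Lat, GRCm38.p6 chr7:126369569-126369818, - strand: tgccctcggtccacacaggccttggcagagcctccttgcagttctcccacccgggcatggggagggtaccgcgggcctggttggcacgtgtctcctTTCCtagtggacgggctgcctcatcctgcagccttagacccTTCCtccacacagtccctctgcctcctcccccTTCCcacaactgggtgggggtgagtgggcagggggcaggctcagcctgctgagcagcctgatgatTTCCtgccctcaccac
Cd247, GRCm38.p6 chr1:165788431-165788680, + strand: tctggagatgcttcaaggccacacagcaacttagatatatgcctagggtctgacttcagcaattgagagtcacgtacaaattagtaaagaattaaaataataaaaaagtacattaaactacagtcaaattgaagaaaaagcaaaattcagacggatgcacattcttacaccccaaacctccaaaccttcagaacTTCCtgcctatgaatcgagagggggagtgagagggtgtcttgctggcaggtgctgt
Themis, GRCm38.p6 chr10:28668110-28668359, + strand: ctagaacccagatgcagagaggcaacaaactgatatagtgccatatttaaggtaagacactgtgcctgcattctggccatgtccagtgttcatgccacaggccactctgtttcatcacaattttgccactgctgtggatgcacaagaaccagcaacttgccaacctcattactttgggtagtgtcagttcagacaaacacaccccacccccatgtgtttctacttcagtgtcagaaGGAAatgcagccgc
GGAA was searched on both strands. It had 8 matches before Zap70, 4 before Lat, 1 before Cd247 and 1 before Themis. Of 27025 upstream stretches of the same length 93.4% held at least 1 match, 23.1% held 1 or fewer, 33.4% held 4 or more and 1.47% held 8 or more. GGAAA, part of NFAT sites, contains GGAA and was found 3 times before Zap70, 2 times before Lat and 1 time before Themis. Of all stretches 55.6% held it and 78.3% had 1 match or fewer. Neither TGTGGT, the RUNX core, nor the AP-1 motif TGANTCA was present in any of the 4 windows, against 14.2% and 6.85% of all stretches.

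Levels are given as log2(intensity + 16) after quantile normalization of the 12 arrays together. Cells of the CD4+ preparations carried T cell transcripts throughout. Cd3d, a CD3 chain, lay between 10.44 and 11.04 on every array. Cd4 itself was dimmer, at 6.67 ± 0.10 (SD, n = 3) in BALB and 6.89 ± 0.31 in SKG against 8.45 ± 0.51 in the IL-6 group and 8.21 ± 0.24 in the IFNg group. Ifng was 9.41 ± 0.48 in the IFNg group and 13.55 ± 0.02 in the IL-6 group, and Il6 was 6.51 ± 1.31 in the IL-6 group against 5.38 ± 1.26, so the Il6 level is no check of the knockout. The signal ratio of the 3' to the 5' actin control probe sets ran from 1.93 to 2.63 in SKG and from 2.95 to 3.98 in BALB. It was 1.60 to 1.67 in transfer replicates 1 and 2 and 3.81 and 5.13 in replicate 3 of the IFNg and IL-6 groups. The same ratio for the Gapdh controls overlapped between SKG, at 2.57 to 3.03, and BALB, at 2.86 to 3.28. For Gapdh it was 2.42 to 2.84 in transfer replicates 1 and 2 and 7.99 and 9.33 in replicate 3 of the IFNg and IL-6 groups. Among other cell types, the CD8 genes Cd8a and Cd8b1 went opposite ways. Their summed intensity ran from 25.3 to 142.6 in SKG and from 217.3 to 285.9 in BALB. This sum and those below are of deposited intensities, without normalization between arrays. Cd8b1 was lower in SKG (limma adjusted p = 0.0035). Cd8a differed by 0.81 (limma adjusted p = 0.072) and in BALB averaged 4.73, at the tested floor. The summed intensity of 4 plasma cell genes ran from 4955 to 6935 in SKG and from 2502 to 4340 in BALB. Xbp1, by far the brightest, averaged 12.31 in SKG and 11.30 in BALB when these 6 arrays were normalized together. Of the 4 genes 2, Xbp1 and Derl3, were higher in SKG. Jchain differed by 1.01 and Sdc1 by -0.64, neither passing. The summed intensity of 7 measured B cell genes ran from 144.5 to 213.8 in SKG and from 73.4 to 339.5 in BALB. Of these Cd79a, Cd79b, Pax5 and Fcrla lay below the tested floor over the 12 arrays. Of macrophage, NK, dendritic, neutrophil and erythroid genes 1 dendritic gene, Zbtb46, was higher in SKG (limma adjusted p = 0.047; the replicate block gave 0.055), and with the block Cd68, a macrophage gene, was lower (0.12 without it, 0.025 with it). In the transfers the plasma cell gene Derl3 was higher in the IFNg group with the block alone (0.25 and 0.021). The part of these differences in the results below was not tested.

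In SKG cells 3 of the 8 measured genes were lower than in BALB cells and 1 was higher. Zap70, Lat and Cd247 were 1.51-fold, 1.63-fold and 1.40-fold lower, and Themis was 4.08-fold higher. Fyn, Lcp2, Plcg1 and Cd3e did not pass. In limma's test over 12075 genes, with Benjamini-Hochberg adjusted p under 0.05, 11.8% of all genes were lower in SKG and 15.7% were higher. The median difference of the 8 members was -0.29 on the log2 scale, beside 0.06 over all genes tested. In bulk samples fewer cells of a type and less RNA per cell cannot be told apart.

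**Figure D1:**
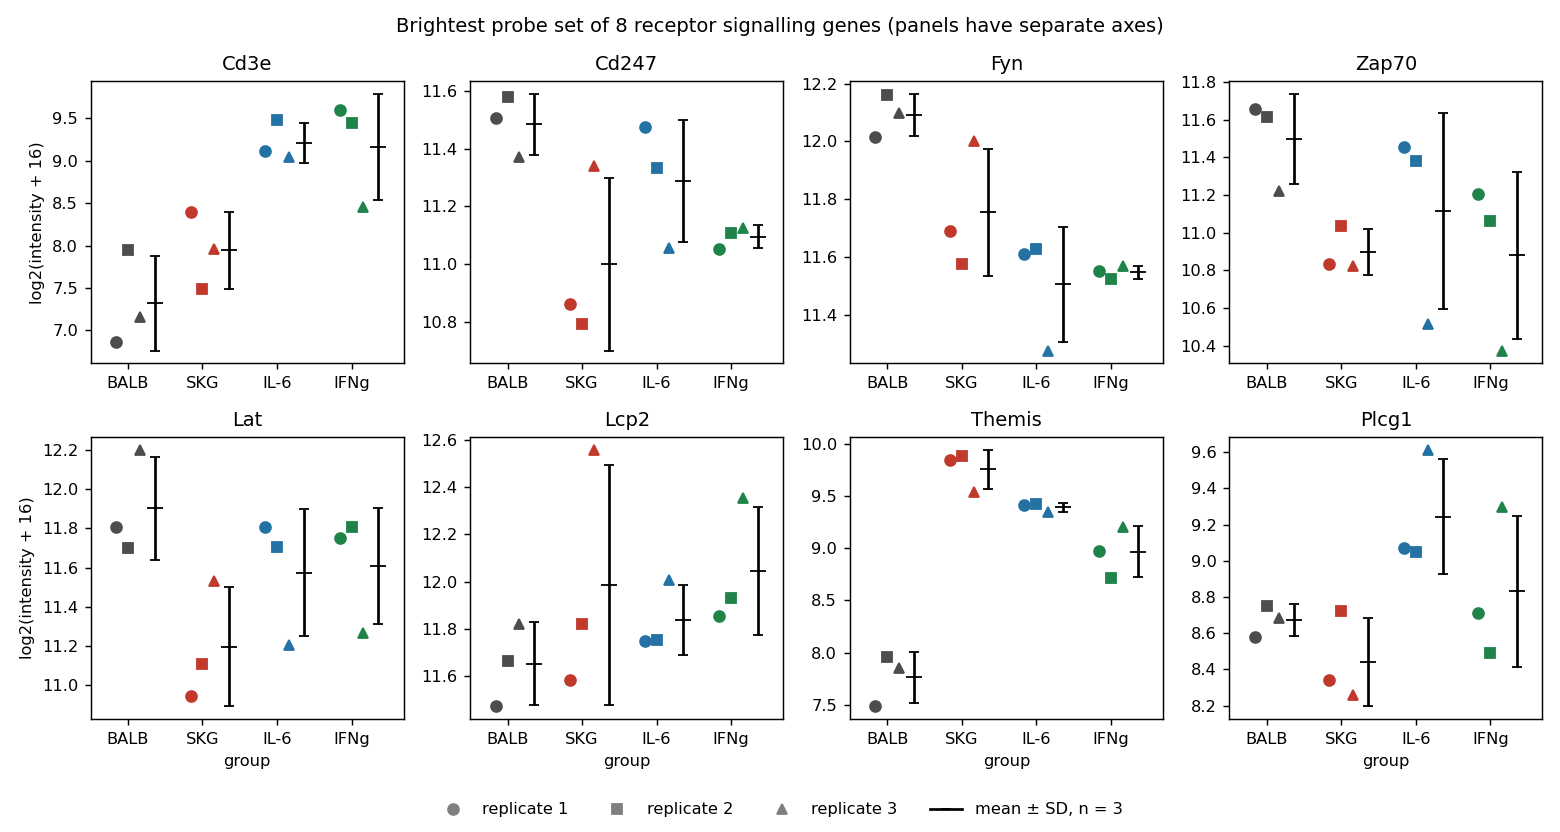
Level of the brightest probe set of each gene, log2(intensity + 16) on the vertical axis with a separate scale in each panel, in the BALB, SKG, IL-6 and IFNg groups. Each marker is 1 array, its shape gives the replicate number, and bars are the mean ± SD of 3 arrays. Themis separates all 4 groups, Zap70 and Lat lie lower in SKG than in BALB, and Cd3e lies higher on all 6 transfer arrays than on the SKG and BALB arrays.

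**Figure D2:**
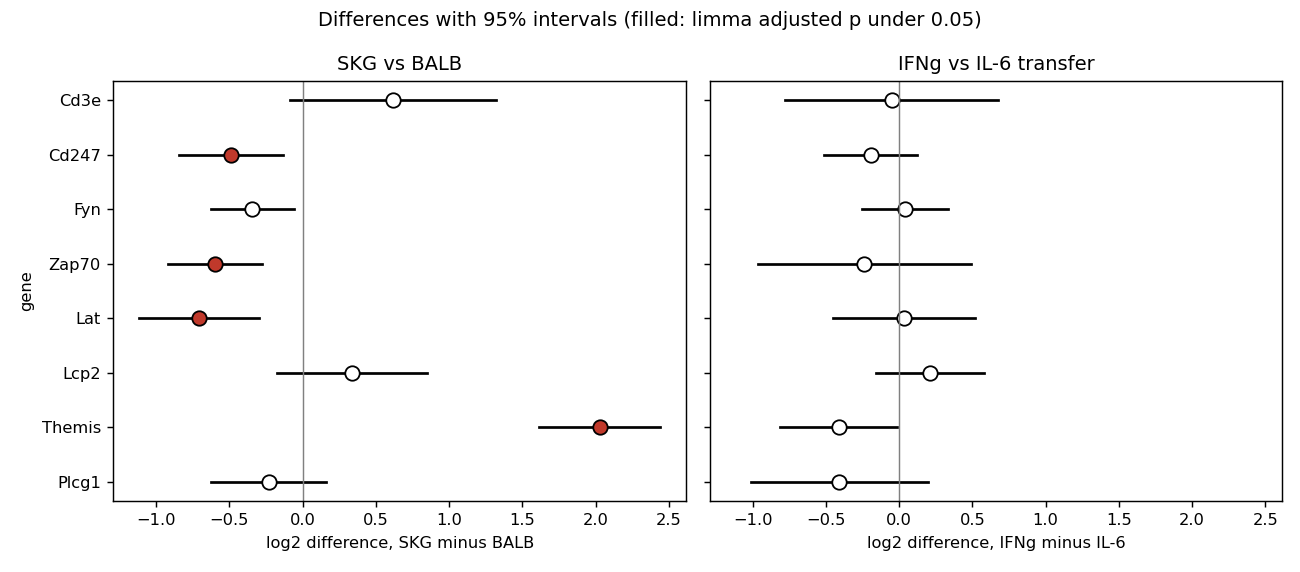
Difference between the groups of each comparison on the log2 scale (horizontal axis) for 8 genes, with 95% intervals from limma. Filled points had an adjusted p under 0.05. In SKG against BALB these were Themis above 0 and Zap70, Lat and Cd247 below, and no point was filled in the transfer comparison.

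Of the receptor chains, Cd3e encodes the CD3 epsilon chain. Its level was 6.86, 7.94 and 7.15 in BALB replicates 1 to 3 and 8.39, 7.48 and 7.95 in SKG, so the groups overlapped. The difference of 0.62 ± 0.31 (SE) did not pass (limma adjusted p = 0.18). In the transfers Cd3e was 9.12, 9.48 and 9.04 in the IL-6 group and 9.60, 9.45 and 8.45 in the IFNg group, higher on all 6 arrays than on any SKG or BALB array. Such an order, all transfer arrays above, held for 8.88% of 12176 genes, and for Cd3e among the 8 members. Age, tissue, labelled stimulation and host differ together between these sets, and their parts in this difference cannot be told apart.

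Cd247 encodes the zeta chain, whose tyrosine motifs are the docking sites of ZAP-70. Its brightest probe set (1426396_at) read 11.50 ± 0.11 (SD, n = 3) in BALB and 11.01 ± 0.30 in SKG when these 6 arrays were normalized together. The fall of 0.49 on the log2 scale, with an SE of 0.16, was called narrowly (limma adjusted p = 0.047). With the 12 arrays normalized together, SKG replicate 3, at 11.34, lay just under the lowest BALB array at 11.37. The call ended under 12 of 19 alternatives, including each array left out except SKG replicate 3 (adjusted p from 0.054 to 0.17), and with the median of the 4 probe sets the difference was -0.33 (0.22). The other 3 probe sets differed by -0.10, -0.55 and -0.32, all in the same direction and none passing. The last of them, 1426079_at, averaged 4.66 in SKG and 4.98 in BALB, near the tested floor of 4.74, so its direction is not reliable.

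Fyn encodes a Src family kinase that acts beside Lck. Its 2 probe sets went opposite ways. The brighter (1417558_at) read 12.01, 12.16 and 12.10 in BALB and averaged 11.75 ± 0.22 (SD, n = 3) in SKG, all 3 arrays below the lowest BALB array, a difference of -0.34 ± 0.13 (SE) that did not pass (limma adjusted p = 0.074). Fitting the replicate number as a block brought it past (0.042), and 4 members were then lower where 14.7% of all genes were. The dimmer (1448765_at) was higher in SKG by 0.33 ± 0.12 (adjusted p = 0.075 over all probe sets), and SKG and BALB arrays did not overlap for either probe set. The gap between the 2 probe sets on each array was 1.02, 0.99 and 1.11 in BALB and 0.30, 0.30 and 0.52 in SKG. This difference, examined after its values were seen, was -0.67 with no overlap. An exact permutation test of 3 against 3 gives any values without overlap its smallest two-sided p of 0.10, so it decides nothing here. The median of the probe sets gave a Fyn difference of -0.0079. In the transfer groups the gap was 0.39 to 0.50 in replicates 1 and 2 and -0.10 and -0.02 in replicate 3, the arrays with the highest ratios of 3' to 5' control signal in these groups. Its part in the result was not tested.

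Zap70 encodes the kinase that SKG mice carry in mutant form. The deposited intensity of its brightest probe set (1422701_at) was 3070, 2946 and 3021 in BALB replicates 1 to 3 and 1568, 1821 and 2142 in SKG. On the normalized log2 scale these were 11.66, 11.62 and 11.22 against 10.83, 11.04 and 10.82, and every SKG array was below every BALB array. Over all genes tested 43.3% had SKG and BALB arrays that did not overlap, and 5 of the 8 members had. The level fell by 0.60 (SE 0.14, 95% interval of the difference from -0.92 to -0.28, limma adjusted p = 0.014), a 1.51-fold lower level. The call was lost without SKG replicate 1 (adjusted p = 0.060), without BALB replicate 1, the unsorted array (0.067), without BALB replicate 2 (0.059) and with all 12 arrays in 1 fit (0.11), while the size stayed between 0.52 and 0.80 under all 19 alternatives.

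A further Zap70 probe set bore the fall and another did not. Probe set 1440178_x_at read 10.95, 10.54 and 10.55 in BALB and 9.75, 10.11 and 9.78 in SKG and fell by 0.80 (SE 0.17, limma adjusted p = 0.0096 over 27022 probe sets). Probe set 1439749_at was dimmer, at 7.17 ± 0.17 (SD, n = 3) on the joint scale in BALB and 7.14 ± 0.27 in SKG, and its difference of -0.03 ± 0.20 (SE) did not pass (adjusted p = 0.94).

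**Figure D3:**
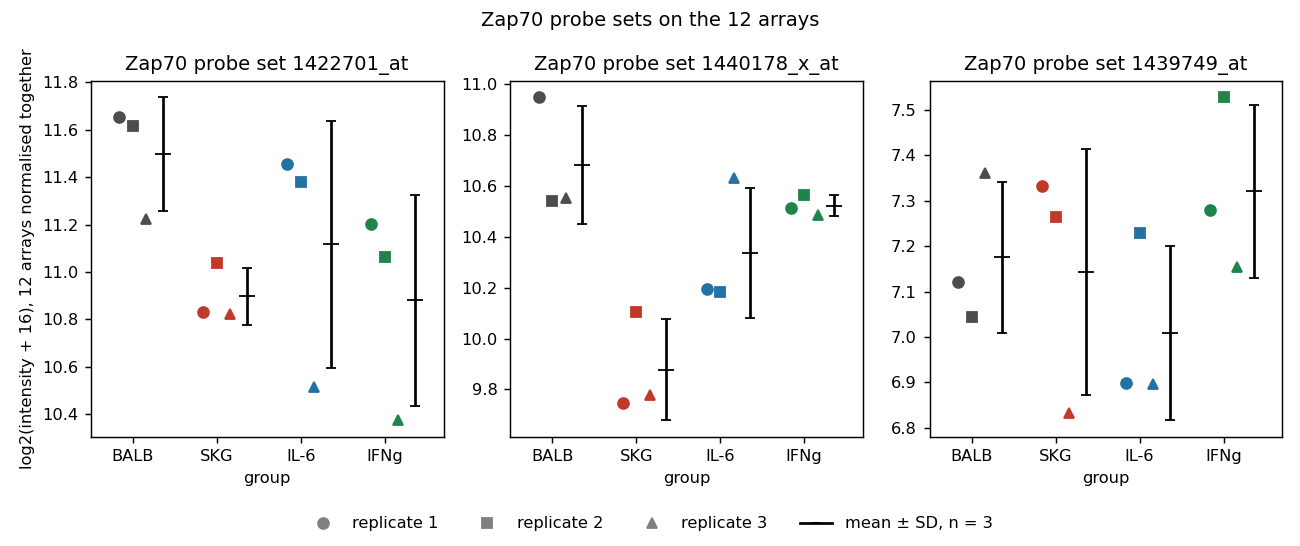
The 3 Zap70 probe sets in the 4 groups, as log2(intensity + 16) with a separate vertical scale in each panel. Each marker is 1 array and bars are the mean ± SD of 3 arrays. SKG arrays lie below BALB arrays for 1422701_at and 1440178_x_at and overlap them for 1439749_at, and replicate 3 of both transfer groups is low for 1422701_at but not for 1440178_x_at.

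Across the 4 groups the mean of Zap70 was highest in BALB, then 11.12 ± 0.52 (SD, n = 3) in the IL-6 group, 10.90 ± 0.12 in SKG and 10.88 ± 0.44 in the IFNg group, and neighbours in this order overlapped. The wide spread of the transfers came from replicate 3, at 10.51 and 10.37 against 11.45 and 11.38 in the other IL-6 arrays and 11.20 and 11.06 in the other IFNg arrays. The IFNg group differed from the IL-6 group by -0.24 ± 0.31 (SE, limma adjusted p = 1.0). The 2 brighter probe sets disagreed in sign there, since 1440178_x_at differed by 0.18 ± 0.16.

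Genes whose centred values over the 12 arrays lay closest to those of Zap70 were Ppm1g, Gtpbp1, Dlst, Nfkb2 and Ogdh, at root mean square differences of 0.082, 0.13, 0.15, 0.15 and 0.15 log2 units against a median of 0.55 over 12175 genes. Zap70 itself varied by 0.39 about its mean. It was lowest on replicate 3 of the IL-6 and IFNg groups (10.51 and 10.37), with actin 3' to 5' ratios of 5.13 and 3.81. Probe set 1440178_x_at read 10.63 and 10.48 there. The part of these 2 arrays in the likeness was not tested. Of the other members Cd247 stood nearest, at 0.30 and rank 504, and Themis and Cd3e were among the farthest, at 1.04 and 1.05.

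Lat encodes the membrane adaptor that ZAP-70 phosphorylates. It read 11.80, 11.70 and 12.20 in BALB and 10.95, 11.11 and 11.53 in SKG, with no overlap. It fell by 0.71 (SE 0.18, limma adjusted p = 0.019). The call was lost without SKG replicate 1 (adjusted p = 0.077), SKG replicate 2 (0.067) or BALB replicate 3 (0.053), and without normalization between arrays (0.14), where the value was -0.83. In the transfers it was 11.57 ± 0.32 (SD, n = 3) in the IL-6 group and 11.61 ± 0.30 in the IFNg group, a difference of 0.03 ± 0.21 (SE) with a 95% interval from -0.45 to 0.52.

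Lcp2 encodes SLP-76, the cytosolic adaptor that joins LAT. Its brighter probe set was 11.47, 11.67 and 11.82 in BALB and 11.59, 11.82 and 12.56 in SKG, overlapping, with a difference of 0.34 ± 0.23 (SE, limma adjusted p = 0.31). The dimmer probe set (1418642_at) rose by 0.65 ± 0.20 in SKG, with no overlap (adjusted p = 0.048 over all probe sets). Neither probe set was lower in SKG, unlike that of Lat.

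Plcg1 encodes phospholipase C gamma 1, which splits the lipid that gives diacylglycerol and the calcium signal. It was 8.58, 8.75 and 8.69 in BALB and 8.34, 8.72 and 8.26 in SKG, with overlap, and the difference of -0.23 ± 0.17 (SE) did not pass (limma adjusted p = 0.36). Of its other probe sets 1442963_at differed by -0.39 ± 0.26 and 1450360_at was below the tested floor. Its mean was highest in the IL-6 group, at 9.24 ± 0.32 (SD, n = 3).

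Themis, an adaptor that binds Grb2 and tunes receptor signals during thymic selection, was the member that changed most. It read 7.49, 7.95 and 7.85 in BALB and 9.85, 9.88 and 9.54 in SKG, so the groups lay far apart. It rose by 2.03 ± 0.18 (SE, 95% interval from 1.62 to 2.44, limma adjusted p = 0.00021), a 4.08-fold higher level and the 85th smallest p of the comparison. The call held under all 19 alternatives (adjusted p up to 0.0051), and the smallest value, 1.23, came from the median of its 4 probe sets. Of those, 1439719_at rose by 2.00 ± 0.29 (adjusted p = 0.0018), while 1442022_at differed by 0.996 ± 0.32 (0.058, and 0.0050 with the replicate block) and 1443192_at by 0.45 ± 0.20 (0.15).

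**Figure D4:**
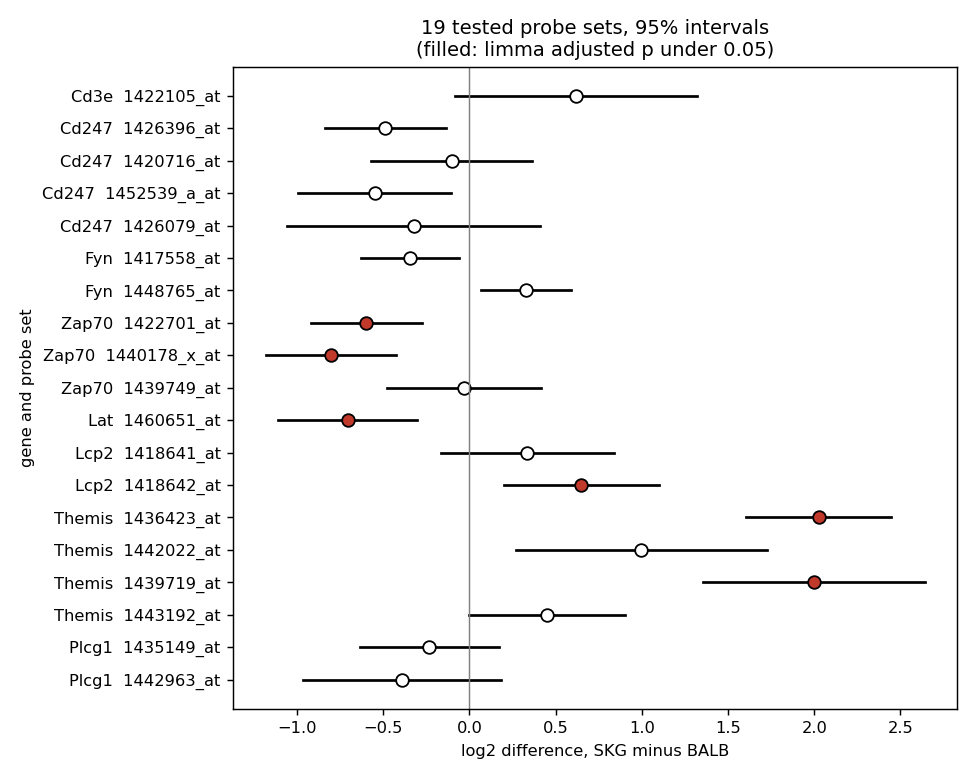
Difference between SKG and BALB on the log2 scale (horizontal axis) for the 19 tested probe sets of the 8 genes, with 95% intervals from limma fitted over all probe sets. Filled points had an adjusted p under 0.05. They were 2 of Themis and 1 of Lcp2 above 0, and 2 of Zap70 and 1 of Lat below, and the 2 Fyn probe sets lie on opposite sides of 0.

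Counted by probe set, 3 of 19 tested were higher and 3 lower in SKG, where 10.3% and 9.89% of all 27022 probe sets were. Members of 1 gene share a transcript, so these counts are not independent of the counts by gene. With the replicate block, which fits the replicate number as a factor, 5 were lower where 13.6% of all were. Themis 1442022_at was then higher too. Without SKG replicate 1 or BALB replicate 1 only 1 was lower, and without SKG replicate 3 the count was 5. The share of all probe sets in these 3 settings is not given here. By gene, which is another set of features, 885 of 12045, 875 of 12095 and 1713 of 12074 were lower, against 1423 of 12075 with all arrays.

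By its brightest probe set Themis was the 1 member of 8 whose 4 groups did not overlap at any step of their order, which held for 0.739% of 12176 genes. The mean was 9.76 ± 0.19 (SD, n = 3) in SKG, 9.39 ± 0.04 in the IL-6 group, 8.96 ± 0.25 in the IFNg group and 7.76 ± 0.25 in BALB. Probe set 1439719_at kept this order, with means of 8.58, 7.83, 7.29 and 6.56. Its groups did not overlap either, though the lowest IFNg array, at 6.952, lay just above the highest BALB array, at 6.947. The remaining Themis probe sets ordered the groups differently. For 1443192_at the means of the IL-6 and IFNg groups, 6.19 and 6.11, were below the 7.11 of BALB, and for 1442022_at the IFNg group (7.16) overlapped BALB (7.19). In the transfer comparison the brightest Themis probe set read 9.41, 9.42 and 9.34 in the IL-6 group and 8.97, 8.71 and 9.21 in the IFNg group. The difference was -0.41 ± 0.17 (SE) and did not pass over all genes (limma adjusted p = 1.0; the replicate block gave 0.17). Over all genes 9.93% had transfer arrays that did not overlap, and 1 of the 8 members, Themis, had. Without replicate 3 of both groups it was -0.54 (adjusted p = 0.023), a setting under which 1.94% of all genes were lower.

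In the transfer comparison 0 of the 8 members passed by limma and 1, Themis, had an unadjusted p under 0.05. The adjusted test called 0.114% of 12262 genes. With the replicate block 1.79% of genes passed and again 0 members, with 4 members, Themis, Plcg1, Zap70 and Lcp2, at an unadjusted p under 0.05, where 14.4% of all genes were. With array weights 0 members passed too. With replicates 1 and 2 only, a choice that leaves out the arrays with the high 3' to 5' control ratios, Cd247 (-0.32, adjusted p = 0.038) and Themis were lower in the IFNg group, where 239 of 12291 genes (1.94%) were lower against 6 of 12262 with all replicates. The median of the 8 members was -0.12 against 0.0038 over all genes, and the 95% interval of the Zap70 difference ran from -0.96 to 0.49, so a change of the size seen in SKG is inside it.

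A test of the difference between the comparisons, SKG minus BALB less IFNg minus IL-6, was fitted over all 12 arrays. It was 2.42 ± 0.25 (SE) for Themis (limma adjusted p = 0.00024), the 1 member of 8 that passed where 8.20% of genes did. For Lat it was -0.74 ± 0.30 (adjusted p = 0.16; the block gave 0.0010, where 25.6% of genes passed). For Zap70 it was -0.36 ± 0.36 (adjusted p = 0.61), so the fall in SKG was not shown to differ from the transfer value. With the median of its probe sets Zap70 gave -0.99 (adjusted p = 0.020).

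Other genes of the pathway were read from 5 lists of 51 genes, of which 47 were tested. In SKG 12 were lower and 1 higher, 27.7% passing beside 27.5% of all genes, with a median of -0.27. With the replicate block 13 were lower and 3 higher, where 34.6% of all genes passed. In the transfer comparison 0 of 47 passed by limma, and 2 were higher with the block, Cd5 (adjusted p = 0.028) and Pik3cd (0.011). Of the activation targets Egr3 (0.021) and Nr4a1 (0.023) were lower with the block alone. The counts by list below stand beside 11.8% of all genes lower and 15.7% higher in SKG.

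**Figure D5:**
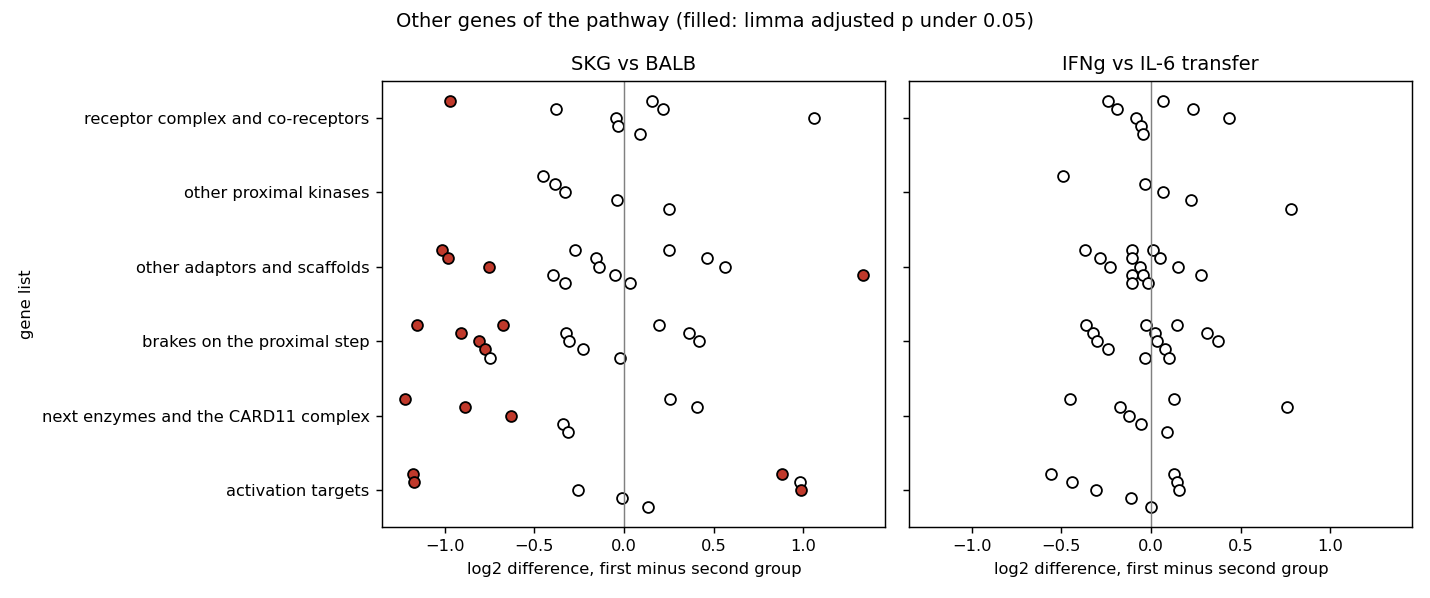
Differences of the other pathway genes on the log2 scale (horizontal axis, first group minus second) in SKG against BALB and in the transfer comparison, 1 point per gene in 6 lists. Filled points had a limma adjusted p under 0.05. Most filled points lie below 0 in SKG, among them 5 of the 13 brakes, and none is filled in the transfer comparison.

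Of the receptor complex and co-receptors 1 of 8 fell and 0 rose. Cd5, a receptor that restrains signalling and whose level follows signal strength, fell by 0.97 (SE 0.18, limma adjusted p = 0.0054). Cd3g, the CD3 gamma chain, differed by 1.06 ± 0.35 and passed with the replicate block alone (adjusted p = 0.051, and 0.00055 with the block). Cd3d differed by 0.16 ± 0.13 and Cd4 by 0.22 ± 0.20, neither passing. Of 5 other kinases tested 0 passed by limma, and 1, Prkcq, was lower with the block (adjusted p = 0.0499).

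Among 14 other adaptors 1 rose and 3 fell, and 10 did not pass. Trat1, a transmembrane adaptor of the receptor, rose by 1.33 ± 0.26 (SE, limma adjusted p = 0.0058). Sit1, an adaptor that recruits phosphatases, fell by 1.02, Sh2d2a, an adaptor that binds Lck, fell by 0.98, and the GTPase gene Rhoh, whose product helps bring ZAP-70 to the receptor, fell by 0.75 (adjusted p from 0.0035 to 0.028). With the replicate block Was, an actin regulator, was higher too (adjusted p = 0.051, and 0.040 with the block).

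Of 13 brakes on the first step 5 fell, 0 rose and 8 did not pass, with a median of -0.32. Among those that did not pass, Cbl, Sla and Dgka differed by 0.42, 0.19 and 0.36, and their SKG arrays lay above all BALB arrays. Pag1, the adaptor that holds Csk at the membrane, fell by 1.16. Dok2 fell by 0.91, Dgkz, a kinase that consumes diacylglycerol, fell by 0.81, the phosphatase gene Ptpn6 fell by 0.78 and Ubash3a fell by 0.67 (limma adjusted p from 0.0045 to 0.047). With the replicate block 5 passed, all lower, with Ubash3b (adjusted p = 0.060 without the block, 0.031 with it) among them and Ubash3a not (0.052).

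Of 7 genes of the next enzymes 3 fell, 0 rose and 4 did not pass. Pik3r1, a regulatory subunit of PI3 kinase, fell by 1.22 (SE 0.16, limma adjusted p = 0.00099). Stim1, the calcium sensor of the endoplasmic reticulum, fell by 0.89, and Bcl10, which links the receptor to NF-kB, fell by 0.63. Of 8 targets of activation 2 were higher, 2 were lower and 4 did not pass. Il2ra rose by 0.99 ± 0.17 and Egr1 by 0.88 ± 0.13, while Egr3 fell by 1.18 (SE 0.18) and Nr4a1 fell by 1.17 (SE 0.09; limma adjusted p from 0.00012 to 0.0030 for the 4). The block raised these counts to 3 higher and 3 lower, with Tnfrsf9 (adjusted p = 0.070 without it, 0.00051 with it) and Cd69 (0.072 and 0.027) added. Of 5 markers of T cells in general 2 were higher and 1 lower. Thy1 rose by 1.44 ± 0.15 (limma adjusted p = 0.00042) with Trat1 while Cd5 fell. The summed deposited intensity of the 5 markers, not normalized between arrays, overlapped, at 8439 to 10095 in BALB and 8786 to 12847 in SKG.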

How the data were processed

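Per the labels' protocols, RNeasy-purified RNA was transcribed in vitro into biotinylated target. The authors deposited linear intensities, 1 per probe set and array; how they were summarised or normalised is not given in the sources used here. Medians ran from 15.7 to 27.7, so arrays were quantile normalized as log2(intensity + 16) without the 64 control probe sets. A fold change on that scale understates changes of dim genes. Symbols were updated by gene ID to RefSeq names of GRCm38.p6, which supplied the upstream sequences. The brightest probe set over 12 arrays stood for a gene, tested if its mean was at or above a floor at the 40th percentile (4.74 and 4.72 in the 2 comparisons). R 4.3.3 and limma 3.58.1 (lmFit, eBayes with an intensity trend) fitted each comparison on its own 6 arrays, two-sided, adjusted by Benjamini-Hochberg. The fit was tested on simulated data. The number of arrays limits the precision.

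Members and lists were chosen with earlier results of these data known. Named genes were all members, up to 4 passing genes per list with the smallest p, and the 5 genes most like Zap70. Checks of labels and cell types were named too. Ubash3a, Ubash3b, Cbl, Sla, Dgka, Cd3g, Cd3d and Prkcq were added after their values were seen. So were Pik3cd, Was, Tnfrsf9, Cd69, Cd68, Zbtb46, Derl3, Cd8a, Jchain and Sdc1.

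Replicate numbers 1 to 3 in each group come from the labels. Deviations of same-numbered arrays from their group mean correlated across genes at 0.13, 0.20 and 0.33 for SKG and BALB and at 0.46, 0.45 and 0.70 for the transfers, so the replicate block is given where it changes a call. Replicates 1 and 2 of different groups correlated similarly.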

Additional observations from a re-analysis of the deposited data

Results flagged for a closer look

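The change of Themis differed between the comparisons. It rose by 2.03 in SKG against BALB and was -0.41 in the IFNg against the IL-6 transfer, and the limma interaction over 12 arrays was 2.421 (SE 0.25, adjusted p = 0.00024), the only interaction among the 8 members with an adjusted p under 0.05. Groups of 3 arrays were too small for a search for single outlying arrays.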

How the results depend on the processing

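In SKG against BALB, 1 member was higher under all 19 alternatives. Over all genes 1901 of 12075 were higher in the main fit. By gene, the alternatives ran from 1114 of 12045 without SKG replicate 1 to 2917 of 12075 with array weights. The 3 lower members became 1 without normalization between arrays and 0 to 4 with an array left out. Over all genes 1423 were lower, 830 without normalization and 875 to 1713 with an array left out. A constant of 1, no filter, the median of probe sets or no intensity trend gave 2 lower members. In these settings 1373 of 12062, 1189 of 18193, 1349 of 11105 and 1265 of 12075 genes were lower. Trimmed-mean scaling (1332 of 12069 genes lower), each probe set separately (2672 of 27022 probe sets) and 12 arrays in 1 fit (1235 of 12074 genes) gave 2 too. The block (1771 genes lower), array weights (2209) and replicates 1 and 2 only (2205) gave 4. By probe set, alternatives chosen after seeing the data gave 1 lower without normalization, 1 without the intensity trend, 5 with the replicate block, and 1 to 5 with an array left out, against 3. Of all probe sets 9.89% were lower in the main fit and 13.6% with the block. The share of probe sets in the other settings is not given here. By gene, 1265 were lower without the intensity trend. In the transfer comparison 0 members passed, with 2 lower for replicates 1 and 2 only, where 1.94% of all genes were lower. In the test of the difference between the comparisons 1 was lower with the median of probe sets and 1 with the replicate block. Over all genes 370 of 11180 and 1258 of 12176 were lower in these settings. The block changed no other count of members beyond 1.5 times.

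Reversed signs concerned members that did not pass. In the transfer comparison Fyn was -0.085 and Lat -0.092 without normalization, Zap70 was 0.18 with the median of probe sets, Cd3e was 0.11 and Fyn -0.069 with array weights, and Cd3e was 0.21 and Fyn -0.081 with replicates 1 and 2 only. With an array left out there, Lat ran from -0.15 to 0.20, Cd3e from -0.26 to 0.30, Zap70 from -0.53 to 0.013 and Fyn from -0.073 to 0.10. In the difference between the comparisons Plcg1 was -0.37 with the median of probe sets and ran from -0.0019 to 0.41 with an array left out, where Lcp2 ran from -0.16 to 0.33. The cause was not tested. Dim probe sets near the floor, among them 1450360_at of Plcg1, have no reliable level.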
